A study of Mus musculus with 9 samples.

Results

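The 45 genes described here encode the proteins that copy DNA in S phase and the enzymes that supply deoxynucleotides for it, out of 46517 genes counted in mouse intestinal stem cells. They were chosen by name from knowledge of replication and mapped by gene symbol to the Ensembl identifiers of the count tables, and all 45 were found and passed the filter on low counts. RNA-seq was done on 3 libraries from each of 3 culture matrices after 4 days: non-degradable PEG, degradable PEG and Matrigel. PEG is polyethylene glycol, a synthetic polymer that is crosslinked into a hydrogel, and the labels separate a form that can be degraded from one that cannot. Matrigel is a basement membrane extract made from a mouse tumour and is the usual support for intestinal organoids. In all 3 matrices the cells had been dissociated, embedded and expanded with R-spondin, noggin, EGF, the GSK3 inhibitor CHIR99021 and valproic acid, a histone deacetylase inhibitor, so no group lacks any of these. The labels name neither the mouse strain nor how many animals or cultures the libraries came from, so each p-value below measures the spread between these libraries, which may be technical.

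DNA replication starts at origins that are loaded with the MCM helicase before S phase and fired once in it. Loading needs the origin recognition complex with Cdc6 and Cdt1. The helicase is then switched on by Cdc45 and the GINS complex, primase with DNA polymerase alpha lays down short primers, and polymerases delta and epsilon extend them on the sliding clamp PCNA. Most of these genes are known targets of E2F transcription factors and peak together around the start of S phase. In the intestine their RNA marks the dividing cells of the crypt, among them the Lgr5-positive stem cells, while Paneth, goblet, enteroendocrine and absorptive cells have left the cycle.

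Each library held 38.0 to 47.2 M reads assigned to genes, and the lowest count of any of the 45 genes in any library was 597. Correlations of log2 CPM (counts scaled to 1 M assigned reads) between libraries were 0.991 to 0.996 within a matrix and 0.969 to 0.993 between matrices, and the fit's biological coefficient of variation was 11.03%. Of 5 epithelial markers none lay under 0.1 CPM, with summed levels of 4189 to 4973 CPM in non-degradable PEG, 4478 to 4995 CPM in degradable PEG and 4128 to 4245 CPM in Matrigel. Fibroblast markers summed to at most 8.76 CPM in any library, with Col1a2, Col3a1 and Dcn under 0.1 CPM, blood markers to at most 2.60 CPM, with Ptprc and Cd3e under 0.1 CPM, and endothelial markers to at most 0.211 CPM, with all 3 under 0.1 CPM. The third library of each PEG matrix was low for the replication genes. In the third non-degradable PEG library all 45 lay below the mean of their matrix on the log2 scale, with a median deviation of -0.11, while its median deviation over all tested genes was 0.0049. In the third degradable PEG library 43 of 45 lay below their matrix mean, with a median deviation of -0.10 (0.0084 over all tested genes). In the first Matrigel library 36 of 45 lay above theirs, with a median deviation of 0.050.

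Together the 45 genes took 0.454%, 0.457% and 0.389% of the assigned reads of the non-degradable PEG libraries, 0.528%, 0.537% and 0.470% in degradable PEG and 0.559%, 0.533% and 0.522% in Matrigel. All 3 non-degradable PEG libraries were below every library of the other matrices, and the degradable PEG and Matrigel libraries overlapped. In bulk RNA, fewer cells in S phase and less of these RNAs per cell cannot be told apart. The lowest of the 9 libraries was a non-degradable PEG library for 44 of the 45 genes, and for 42 it was the third one. For Pola1, the catalytic subunit of polymerase alpha, it was the second degradable PEG library instead. The highest was a degradable PEG library for 12 genes and a Matrigel library for the others, most often the first one (21 genes).

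**Figure D1:**
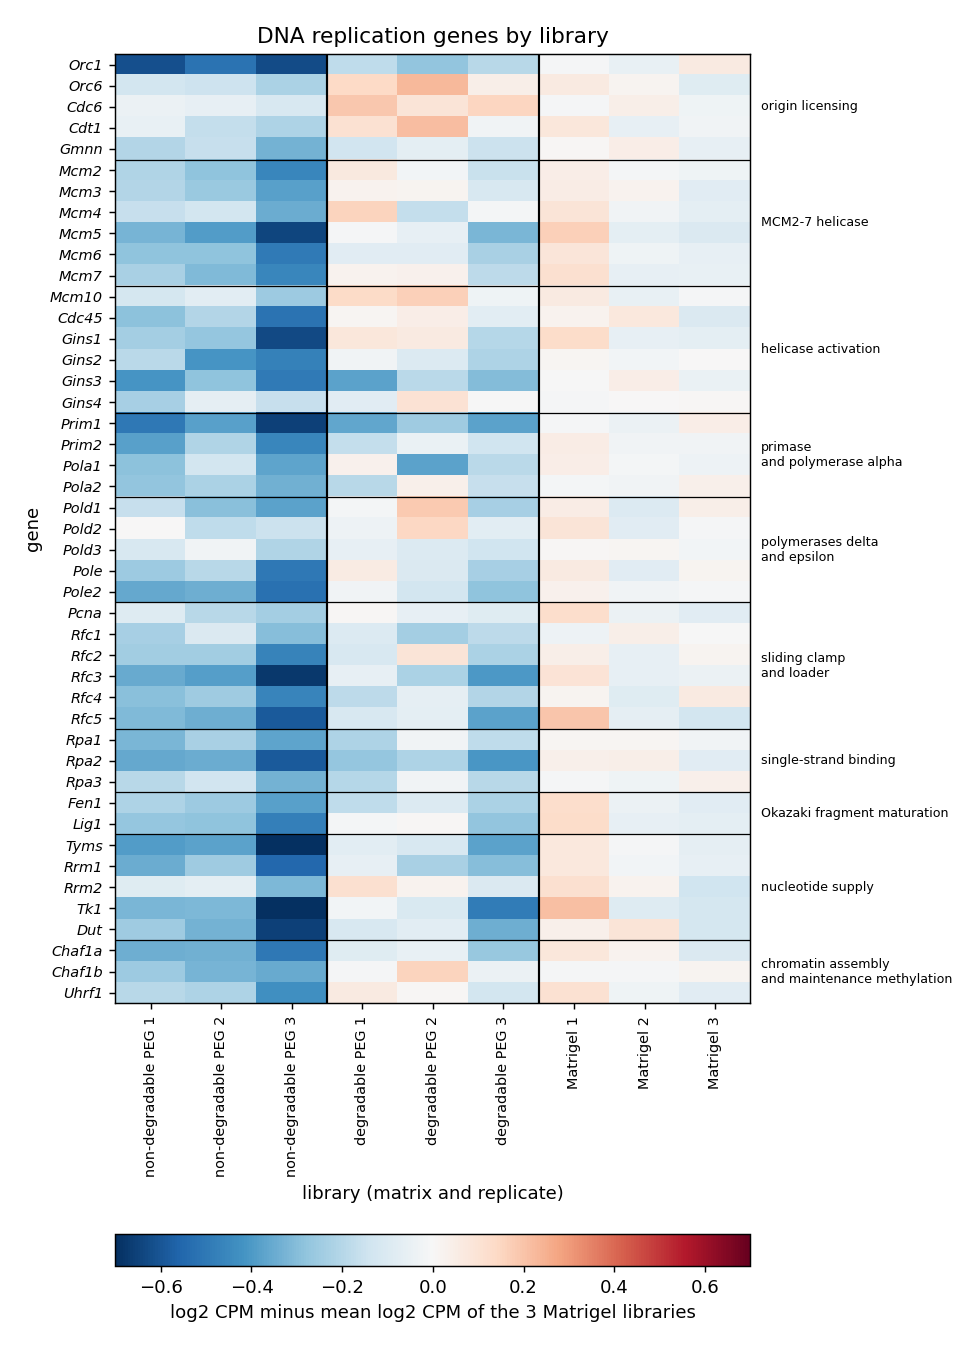
Level of each of the 45 genes in each library, as log2 CPM minus the gene's mean log2 CPM in the 3 Matrigel libraries (blue lower, red higher); rows are genes by role, columns are the non-degradable PEG, degradable PEG and Matrigel libraries. The third non-degradable PEG column is the darkest, with all 45 genes below the mean of their own matrix.

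The order of the 3 matrix means was the same for most genes. For 37 genes the mean was lowest in non-degradable PEG, intermediate in degradable PEG and highest in Matrigel, and for the other 8 (Orc6, Cdc6, Cdt1, Mcm10, Gins4, Pold2, Rrm2 and Chaf1b) degradable PEG was highest. The 3 matrices were separated without any overlap, in the order non-degradable PEG, degradable PEG, Matrigel, for 8 genes: Orc1, Gmnn, Mcm6, Prim1, Prim2, Pole2, Rpa1 and Tyms (background 1.14% of all tested genes in that order). In edgeR's quasi-likelihood F test over the 3 matrices with Benjamini-Hochberg adjustment 21 of the 45 genes differed (background 16.3% of the 14870 tested genes), and 4 did without the third non-degradable PEG library. That count was 9 without the first non-degradable PEG library, and 4, 3 and 7 without the first, the second and the third Matrigel library. Over all tested genes 2424 differed with all 9 libraries, 1754 without the third non-degradable PEG library and 1735 without the first. Without the first, the second and the third Matrigel library 1507, 1566 and 1576 did.

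In non-degradable PEG compared with Matrigel, 29 of the 45 genes were lower at an adjusted p under 0.05 (background 7.13% of all tested genes lower) and none was higher (background 9.71%). At an unadjusted p under 0.05 38 were lower (background 15.3%) and none was higher (background 17.3%), and none was higher in DESeq2. All 45 fitted differences were below 0, with a median log2 fold change of -0.31 (-19.5%), against a median of -0.0021 over all tested genes, and they ran from -0.59 for Orc1 to -0.07 for Cdc6. For 42 genes every non-degradable PEG library was below every Matrigel library (background 21.6% in that direction and 21.8% in the opposite one), the exceptions being Cdt1, Pold2 and Rrm2. With the shared replicate number as a block the count was 32, since Gins1 (adjusted p = 0.00937), Pcna (0.0440) and Tk1 (0.00357) then passed. Over all tested genes the block raised the changed genes from 2504 to 3877.

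The number of genes that passed rested on few libraries. Without the third non-degradable PEG library 5 of the 45 passed, which were Orc1 (adjusted p = 0.00240), Prim1 (0.00638), Rpa2 (0.0257), Tyms (0.0349) and Chaf1a (0.0412), and the median log2 fold change was -0.25. Leaving out the first Matrigel library gave 10 and leaving out the second gave 12, with medians of -0.29 and -0.32. Calls over all tested genes fell as well. Changed genes numbered 2504 with all 9 libraries, 1189 without the third non-degradable PEG library and 1452 and 1636 without these Matrigel libraries. The same 5 genes passed in each of the 17 other settings tried, and all 45 fitted differences stayed below 0 in each of them. On GRCm38 these 5 protein-coding genes lie at chr4:108579423-108614833 (Orc1), chr10:128015168-128030037 (Prim1), chr4:132768332-132778752 (Rpa2), chr5:30058202-30073617 (Tyms) and chr17:56040439-56072289 (Chaf1a).

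**Figure D2:**
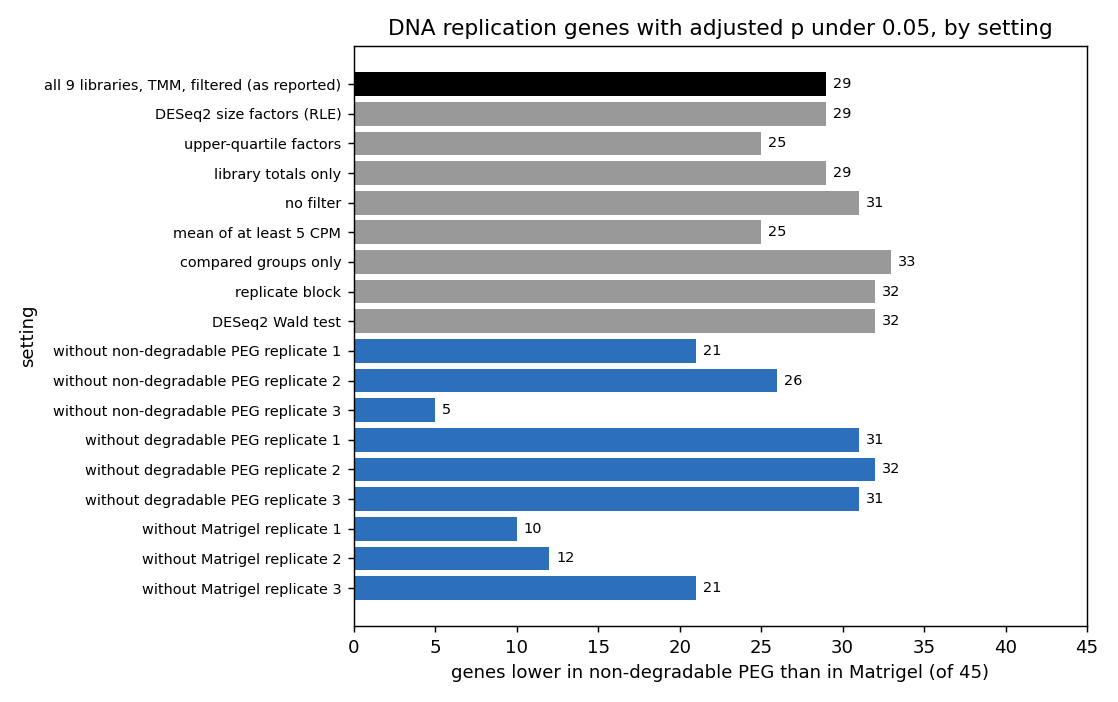
Number of the 45 genes lower in non-degradable PEG than in Matrigel at an adjusted p under 0.05, for the fit reported here (black), for other scalings, filters, models and tools (grey) and with 1 library left out (blue). The bars reach 29 as reported, 25 to 33 in the grey settings and 5 without the third non-degradable PEG library.

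Markers of differentiated and of stem cells were measured beside these genes. Summed over 5 markers each, Paneth markers were at 107.0 to 194 CPM in non-degradable PEG, 100.2 to 172 CPM in degradable PEG and 523 to 1112 CPM in Matrigel, and enteroendocrine markers at 16.1 to 23.3 CPM, 23.4 to 35.0 CPM and 88.6 to 148 CPM in the same 3 matrices. Goblet markers were at 188 to 254 CPM in non-degradable PEG, 135 to 197 CPM in degradable PEG and 572 to 1042 CPM in Matrigel. Enterocyte markers were at 111 to 140.4 CPM in non-degradable PEG, 60.7 to 94.4 CPM in degradable PEG and 151 to 218 CPM in Matrigel, and tuft markers at 8.69 to 11.03 CPM, 7.28 to 10.8 CPM and 13.6 to 14.0 CPM, with Dclk1 under 0.1 CPM. The 5 stem cell markers summed to 1809 to 1914 CPM in non-degradable PEG, 2179 to 2353 CPM in degradable PEG and 2682 to 2844 CPM in Matrigel, of which Smoc2 alone averaged 1157 ± 91.01 CPM, 1386 ± 54.6 CPM and 1944 ± 42.6 CPM in the same 3 matrices (SD, n = 3 each). In a 2-sided exact permutation test each of these 6 sums had p = 0.1 for either PEG against Matrigel, the lowest that 3 against 3 libraries allow, and no PEG library reached the Matrigel range. Single markers did not all follow their sum. Of the stem cell markers Smoc2, Olfm4 and Axin2 were lower in non-degradable PEG against Matrigel, Ascl2 was higher (0.76 ± 0.11, adjusted p = 0.00117) and Lgr5 did not pass, while in degradable PEG Smoc2 was lower and Ascl2 higher (0.92 ± 0.11, adjusted p = 4.84e-04). Of the enterocyte markers Anpep and Fabp2 were lower and Alpi (1.37 ± 0.35, adjusted p = 0.0230) and Apoa1 (1.71 ± 0.36, adjusted p = 0.00927) higher in non-degradable PEG. In degradable PEG the markers Anpep, Fabp2 and Sis were lower. The Paneth marker Mmp7 was at 0.40 ± 0.21 in non-degradable PEG, which did not pass (adjusted p = 0.209), and was higher in degradable PEG (0.79 ± 0.21, adjusted p = 0.0312). No other marker of these 6 lists was higher in either PEG. The part of these cell types in the result was not tested.

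**Figure D3:**
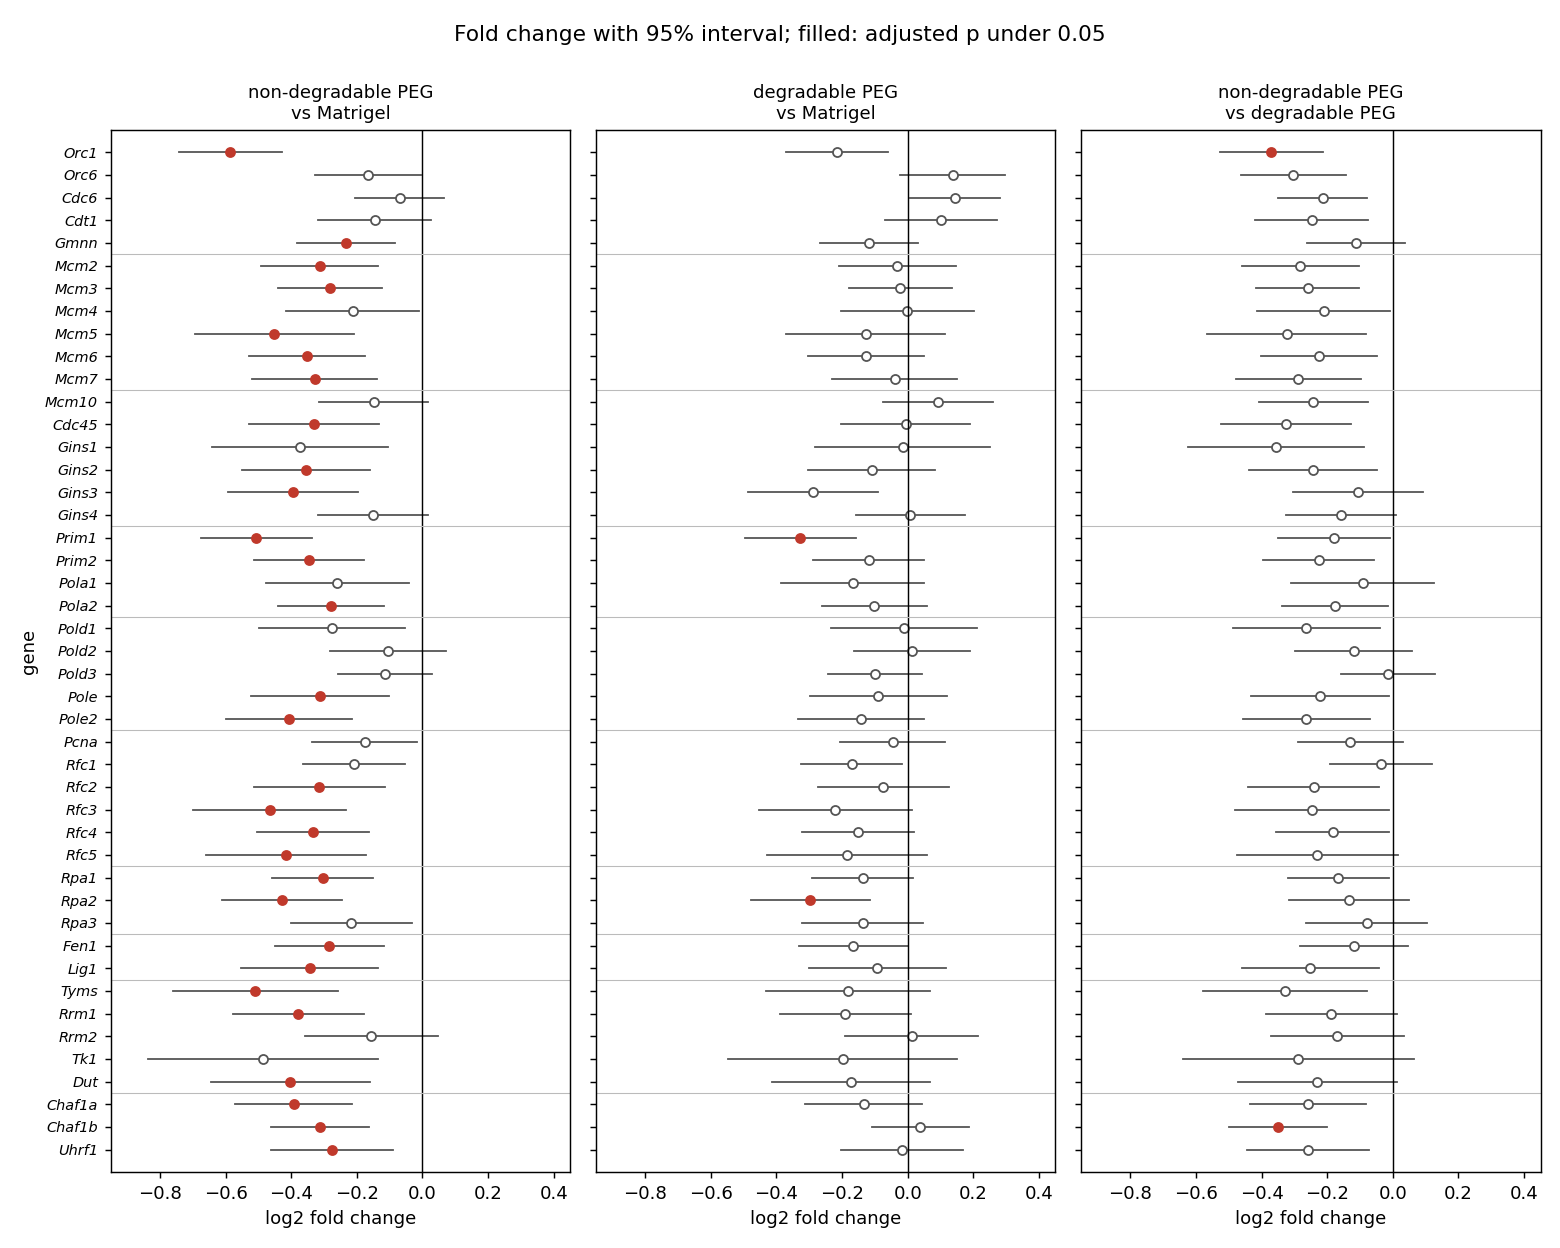
Log2 fold change (point) and 95% confidence interval (line) of the 45 genes in the 3 comparisons, with genes in rows by role; filled points passed at an adjusted p under 0.05. In non-degradable PEG against Matrigel all 45 points lie left of 0 and 29 are filled, while the other comparisons have 2 filled points each.

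Promoter sequences are shown for 5 of the genes that were lower in non-degradable PEG, as E2F sites are the element replication genes are best known to share. The part of such sites in the change was not tested. The 5 genes were picked by motif, as the 4 of smallest p that hold an E2F-type motif and the 1 of smallest p that does not. RefSeq windows (GRCm38.p6, from 250 bases before to 50 after each start) were at hand for 37 of the 45 genes, with Gmnn, Mcm4, Gins1, Gins2, Gins4, Prim2, Pole and Rfc2 without an entry. The letters TTTCCCGC, TTTGGCGC, TTTCGCGC and TTTGCCGC were searched on both strands and are in capitals below, where a motif on the other strand reads as its reverse complement (GCGGGAAA, GCGCCAAA, GCGCGAAA or GCGGCAAA).
Orc1, chr4:108579204-108579503, plus strand: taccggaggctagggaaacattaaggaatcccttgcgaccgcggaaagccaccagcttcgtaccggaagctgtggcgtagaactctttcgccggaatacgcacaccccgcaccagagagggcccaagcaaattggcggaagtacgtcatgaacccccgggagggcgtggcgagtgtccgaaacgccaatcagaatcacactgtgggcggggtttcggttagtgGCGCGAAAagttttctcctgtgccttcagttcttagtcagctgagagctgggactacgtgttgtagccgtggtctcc
Pole2, chr12:69228141-69228440, minus strand: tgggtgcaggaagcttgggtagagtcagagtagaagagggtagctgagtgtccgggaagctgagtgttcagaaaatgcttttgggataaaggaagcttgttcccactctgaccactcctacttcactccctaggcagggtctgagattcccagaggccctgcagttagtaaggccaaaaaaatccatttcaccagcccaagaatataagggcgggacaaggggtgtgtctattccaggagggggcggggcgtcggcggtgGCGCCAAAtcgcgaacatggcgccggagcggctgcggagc
Rfc3, chr5:151651159-151651458, minus strand: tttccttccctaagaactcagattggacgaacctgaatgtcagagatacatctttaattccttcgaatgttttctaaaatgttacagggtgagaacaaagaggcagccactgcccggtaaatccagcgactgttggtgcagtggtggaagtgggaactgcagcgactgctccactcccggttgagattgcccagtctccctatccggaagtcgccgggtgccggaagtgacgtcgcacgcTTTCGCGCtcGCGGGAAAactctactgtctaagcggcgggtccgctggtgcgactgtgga
Gins3, chr8:95633309-95633608, plus strand: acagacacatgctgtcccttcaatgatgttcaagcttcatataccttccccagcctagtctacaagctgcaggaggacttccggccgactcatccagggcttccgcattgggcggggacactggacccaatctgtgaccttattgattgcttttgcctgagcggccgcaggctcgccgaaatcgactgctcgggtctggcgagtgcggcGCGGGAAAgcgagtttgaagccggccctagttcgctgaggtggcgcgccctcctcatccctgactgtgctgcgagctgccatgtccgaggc
Prim1, chr10:128014965-128015264, plus strand: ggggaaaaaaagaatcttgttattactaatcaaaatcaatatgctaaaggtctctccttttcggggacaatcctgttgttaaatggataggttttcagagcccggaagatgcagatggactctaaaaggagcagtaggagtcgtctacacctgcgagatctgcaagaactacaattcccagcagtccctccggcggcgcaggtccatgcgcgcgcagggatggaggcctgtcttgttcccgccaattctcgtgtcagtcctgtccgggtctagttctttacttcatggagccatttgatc

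Motif positions in these windows were close to the start site. The motif began 27 bases before the RefSeq start in Orc1, 41 before it in Gins3 and 10 after it in Pole2, and Rfc3 held a pair of motifs, separated by a pair of bases, at -10 and 0. The GENCODE annotation used for gene coordinates begins all of these genes further upstream. It starts Orc1 at 108579423, Gins3 at 95633453, Pole2 at 69228195 and Rfc3 at 151651242, the last 2 on the minus strand. There the motifs of these genes lie after the start. Of the 37 genes with a window 15 (40.5%) held at least 1 motif, against 704 of 27025 genes (2.6%) in the whole promoter table. The 15 were Orc1, Cdc6, Cdt1, Mcm3, Mcm5, Mcm6, Mcm7, Gins3, Pola1, Pold1, Pold3, Pole2, Rfc3, Lig1 and Uhrf1. In non-degradable PEG against Matrigel 10 of these 15 were lower, with a median log2 fold change of -0.33, and of the 22 genes without the motif 14 were lower, with a median of -0.31. Of the 9 genes with a window that come first in order of p, down to Gins3, the 4 shown hold the motif and 5 do not (Prim1, Rpa2, Chaf1a, Chaf1b and Tyms). A shorter form that lacks the first T, tried after the data had been seen, was in 25 of the 37 genes with a window (67.6%) and in 10.9% of all genes. The Prim1 window holds it as TTCCCGC. Of the other genes just named without the motif, Rpa2, Chaf1a and Chaf1b hold the shorter form too and Tyms does not. A match is a description of letters and was not tested as a site.

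Of the 5 origin licensing genes 2, Orc1 and Gmnn, were lower in non-degradable PEG against Matrigel, and the median log2 fold change of the 5 was -0.17. Orc1, the largest subunit of the origin recognition complex, whose level cycles in human cells, had 24.3, 25.99 and 24.1 CPM in non-degradable PEG, 32.9, 30.7 and 32.5 CPM in degradable PEG and 36.9, 35.8 and 38.9 CPM in Matrigel. None of the 3 matrices overlapped. The log2 fold change in non-degradable PEG against Matrigel was -0.59 ± 0.071 (SE; edgeR quasi-likelihood test, adjusted p = 3.91e-04), the smallest p of the 45. In degradable PEG it was -0.21 ± 0.070 and did not pass (adjusted p = 0.0723). Gm12743 on the opposite strand overlaps 10.8% of the exon bases of Orc1. Gmnn, which encodes geminin, the inhibitor of Cdt1, averaged 53.04 ± 3.2 CPM in non-degradable PEG, 57.4 ± 1.8 CPM in degradable PEG and 62.3 ± 2.2 CPM in Matrigel (SD, n = 3 each) and was lower in non-degradable PEG than in Matrigel (adjusted p = 0.0387). It had a call in 9 of the 17 other settings.

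The loading factors and Orc6 did not pass in this comparison. Cdc6, the ATPase that recruits MCM to origins, had 49.8, 49.3 and 47.3 CPM in non-degradable PEG, 58.5, 54.6 and 56.8 CPM in degradable PEG and 50.9, 52.7 and 50.1 CPM in Matrigel. Its degradable PEG libraries were all above the other 6, and its difference in non-degradable PEG against Matrigel was -0.07 ± 0.062 on the log2 scale (95% interval -0.21 to 0.07, adjusted p = 0.472). Cdt1, the other loading factor, averaged 101 ± 5.96 CPM in non-degradable PEG, 120.00 ± 9.99 CPM in degradable PEG and 112 ± 5.6 CPM in Matrigel. Orc6, the smallest subunit of the origin recognition complex, averaged 40.5 ± 1.4 CPM, 49.9 ± 3.2 CPM and 45.4 ± 2.3 CPM in the same order. Neither passed against Matrigel in non-degradable PEG (adjusted p = 0.224 for Cdt1 and 0.142 for Orc6), in the fit reported or in any other setting tried.

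Of the 6 subunits of the MCM helicase, the ring that unwinds DNA ahead of the fork, 5 were lower in non-degradable PEG than in Matrigel, with a median log2 fold change of -0.32. Mcm5 had 175, 167 and 140.4 CPM in non-degradable PEG, 218, 210.2 and 175 CPM in degradable PEG and 246, 209 and 204 CPM in Matrigel, and its log2 fold change against Matrigel was -0.45 ± 0.11 (adjusted p = 0.0187). Mcm6 had 279, 279 and 240.1 CPM in non-degradable PEG, 321, 321 and 289 CPM in degradable PEG and 359.8, 331 and 326 CPM in Matrigel, a log2 fold change of -0.35 ± 0.080 in non-degradable PEG (adjusted p = 0.0136). For both genes the lowest library was the third of non-degradable PEG and the highest the first of Matrigel. Mcm2, Mcm3 and Mcm7 were also lower (-0.31, -0.28 and -0.33 on the log2 scale), and Mcm4, at -0.21, did not pass (adjusted p = 0.136). In degradable PEG against Matrigel none of the 6 passed or reached an unadjusted p under 0.05 in edgeR, with a median of -0.04. None of the 5 calls held without the third non-degradable PEG library.

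The helicase is activated by Cdc45, Mcm10 and the 4 GINS subunits, of which Cdc45, Gins2 and Gins3 were lower in non-degradable PEG than in Matrigel. Gins3 had 15.8, 17.3 and 14.9 CPM in non-degradable PEG, 16.2, 18.4 and 17.01 CPM in degradable PEG and 20.9, 21.7 and 20.3 CPM in Matrigel. Both PEG matrices lay below Matrigel without overlap and overlapped each other, and the log2 fold changes were -0.39 ± 0.090 in non-degradable PEG (adjusted p = 0.0136) and -0.29 ± 0.090 in degradable PEG (adjusted p = 0.0606), each against Matrigel. Cdc45 averaged 30.2 ± 3.3 CPM in non-degradable PEG, 37.8 ± 1.6 CPM in degradable PEG and 37.9 ± 2.4 CPM in Matrigel, and its difference in non-degradable PEG was -0.33 (adjusted p = 0.0289). Gins1, with 18.1, 17.7 and 13.8 CPM in non-degradable PEG, 22.5, 22.3 and 18.6 CPM in degradable PEG and 23.3, 20.5 and 20.3 CPM in Matrigel, missed the threshold at -0.37 ± 0.12 (adjusted p = 0.0582). The third non-degradable PEG library of this gene was below the other 8. For Gins2 (-0.35, adjusted p = 0.0203) 67.3% of the exon bases overlap exons of Gse1 on the opposite strand, and with no strand setting given in the sources used here its value is uncertain. Gins4 (-0.15) and Mcm10 (-0.15) did not pass.

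Primase and polymerase alpha start every new strand, and 3 of their 4 genes were lower in non-degradable PEG against Matrigel, and 1, Prim1, was lower in degradable PEG. Prim1, the catalytic primase subunit, had 73.7, 80.2 and 66.4 CPM in non-degradable PEG, 81.1, 87.8 and 80.5 CPM in degradable PEG and 104, 101 and 108 CPM in Matrigel. The 3 matrices did not overlap, and the gap between degradable PEG and Matrigel was wider than the gap between the PEG matrices. The log2 fold changes against Matrigel were -0.51 ± 0.077 in non-degradable PEG (adjusted p = 0.00150) and -0.33 ± 0.077 in degradable PEG (adjusted p = 0.0184). Prim2, the other primase subunit, had 37.4, 41.9 and 35.4 CPM in non-degradable PEG, 43.2, 46.95 and 44.02 CPM in degradable PEG and 50.3, 47.7 and 47.8 CPM in Matrigel and was lower in non-degradable PEG (-0.35 ± 0.077, adjusted p = 0.0119). Pola2, the accessory subunit of the polymerase, was lower there as well (-0.28, adjusted p = 0.0252). Pola1 had 88.1, 98.5 and 83.3 CPM in non-degradable PEG, 110.00, 83.1 and 94.5 CPM in degradable PEG and 111, 107 and 105 CPM in Matrigel and did not pass (-0.26, adjusted p = 0.0951). Its degradable PEG libraries spread the most, from 83.1 to 110.0 CPM.

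Polymerases delta and epsilon copy the lagging and the leading strand, and of the 45 genes the epsilon genes Pole and Pole2 were lower while Pold1, Pold2 and Pold3 of delta did not pass. Pole2, an accessory subunit of polymerase epsilon, had 20.8, 21.01 and 18.6 CPM in non-degradable PEG, 26.2, 24.4 and 21.9 CPM in degradable PEG and 27.2, 26.2 and 26.5 CPM in Matrigel, with no overlap among the matrices. Its log2 fold change in non-degradable PEG against Matrigel was -0.41 ± 0.088 (adjusted p = 0.0101), and that of Pole, the catalytic subunit, was -0.31 ± 0.096 (adjusted p = 0.0468). The delta genes Pold1, which encodes the catalytic subunit, Pold2 and Pold3 were at -0.27, -0.11 and -0.11 (adjusted p = 0.0848, 0.398 and 0.257). Pold2 had 95.5, 84.3 and 85.9 CPM in non-degradable PEG, 92.96, 105 and 90.6 CPM in degradable PEG and 101, 89.98 and 94.6 CPM in Matrigel, and its matrices overlapped throughout. The difference between the epsilon and the delta genes was not tested.

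Replication factor C, the loader of the sliding clamp, was lower for 4 of its 5 genes. Rfc3 had 43.2, 42.1 and 34.5 CPM in non-degradable PEG, 52.9, 47.3 and 41.7 CPM in degradable PEG and 58.9, 52.9 and 53.5 CPM in Matrigel, a log2 fold change of -0.47 ± 0.11 in non-degradable PEG against Matrigel (adjusted p = 0.0135) and of -0.22 ± 0.11 in degradable PEG (adjusted p = 0.207). The third library was the lowest in each PEG matrix. Rfc2, Rfc4 and Rfc5 were lower in non-degradable PEG, at -0.31, -0.33 and -0.42 on the log2 scale, and 10.7% to 15.1% of their exon bases overlap a gene on the opposite strand. Rfc1, the large subunit, had 138, 151 and 132 CPM in non-degradable PEG, 152, 138 and 143 CPM in degradable PEG and 158, 167 and 162 CPM in Matrigel. Both PEG matrices were below Matrigel and overlapped each other, and neither difference passed (adjusted p = 0.0648 for non-degradable and 0.144 for degradable PEG). Pcna, the clamp itself and a common marker of cycling cells, had 241, 225 and 217 CPM in non-degradable PEG, 258, 246 and 242 CPM in degradable PEG and 279, 249.5 and 243 CPM in Matrigel. Every non-degradable PEG library was below the other 6, by a narrow margin, and the log2 fold change against Matrigel was -0.18 ± 0.073 (95% interval -0.34 to -0.02, adjusted p = 0.121). The annotation names 2 Pcna pseudogenes, Pcna-ps1 and Pcna-ps2, which may share reads with it.

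Replication protein A coats single-stranded DNA at the fork, and Rpa1 and Rpa2 of its 3 subunits were lower in non-degradable PEG. Rpa2 had 58.97, 59.5 and 50.4 CPM in non-degradable PEG, 62.7, 65.2 and 57.02 CPM in degradable PEG and 77.5, 77.98 and 71.7 CPM in Matrigel. The PEG matrices overlapped, and all 6 of their libraries were below the 3 of Matrigel. Rpa2 was lower in non-degradable PEG (-0.43 ± 0.083, adjusted p = 0.00578) and in degradable PEG (-0.30 ± 0.083, adjusted p = 0.0397), each against Matrigel. Rpa1, the largest subunit, had 171, 183 and 165 CPM in non-degradable PEG, 184, 210.2 and 189 CPM in degradable PEG and 215, 216 and 210.4 CPM in Matrigel, and was lower in non-degradable PEG (-0.30 ± 0.070, adjusted p = 0.0140). Rpa3, the smallest, was at -0.22 and did not pass (adjusted p = 0.0973).

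Both genes that finish Okazaki fragments were lower in non-degradable PEG. Lig1, DNA ligase, had 131, 129 and 113 CPM in non-degradable PEG, 156, 159 and 129.9 CPM in degradable PEG and 172, 151 and 150.2 CPM in Matrigel, and its log2 fold change against Matrigel was -0.34 ± 0.095 (adjusted p = 0.0306). Fen1, the flap endonuclease, had 118, 116 and 106 CPM in non-degradable PEG, 122, 129 and 118 CPM in degradable PEG and 149.7, 134 and 131 CPM in Matrigel, a log2 fold change of -0.28 ± 0.075 in non-degradable PEG (adjusted p = 0.0261). Its value is uncertain, since 84.2% of its exon bases overlap Tmem258 and Gm10143 on the opposite strand.

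Nucleotide supply held the group with the largest median log2 fold change of the 10 roles, -0.40, with 3 of 5 genes lower. Tyms, thymidylate synthase, had 72.3, 73.2 and 54.8 CPM in non-degradable PEG, 90.4, 87.8 and 73.4 CPM in degradable PEG and 99.9, 94.3 and 90.98 CPM in Matrigel. The third library was the lowest in each matrix, and the 3 matrices did not overlap, although the nearest libraries of the PEG gels differed by little. Its log2 fold change in non-degradable PEG against Matrigel was -0.51 ± 0.11 (adjusted p = 0.0123), and 1 pseudogene, Tyms-ps, is annotated. Dut, the enzyme that removes dUTP, was also lower (-0.40 ± 0.11, adjusted p = 0.0297). Tk1, thymidine kinase, had 56.8, 56.9 and 39.01 CPM in non-degradable PEG, 69.95, 65.9 and 50.6 CPM in degradable PEG and 82.01, 66.7 and 65.1 CPM in Matrigel, and with the largest standard error of the 45 genes it missed the threshold at -0.49 ± 0.16 (adjusted p = 0.0587).

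The subunits of ribonucleotide reductase, which makes deoxynucleotides, gave different calls. Rrm1, the large subunit, had 300.4, 322 and 261 CPM in non-degradable PEG, 368, 327 and 311 CPM in degradable PEG and 403, 378 and 367 CPM in Matrigel, and was lower in non-degradable PEG (-0.38 ± 0.091, adjusted p = 0.0172). Rrm2, the small subunit, whose protein is limited to S phase, had 236, 239 and 202 CPM in non-degradable PEG, 271, 256 and 234 CPM in degradable PEG and 272, 256 and 228 CPM in Matrigel. Its matrices overlapped, and the difference in non-degradable PEG against Matrigel was -0.16 ± 0.092 (95% interval -0.36 to 0.05, adjusted p = 0.268). The difference between the subunits was not tested.

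All 3 genes that restore chromatin behind the fork were lower in non-degradable PEG. Chaf1a, the large subunit of chromatin assembly factor 1, had 87.3, 87.7 and 78.1 CPM in non-degradable PEG, 104, 107 and 91.96 CPM in degradable PEG and 117, 112 and 103 CPM in Matrigel, a log2 fold change of -0.39 ± 0.081 (adjusted p = 0.00790). Ubxn6 overlaps 52.5% of its exon bases on the opposite strand, so this value is uncertain. Chaf1b, the middle subunit, had 75.98, 72.4 and 71.1 CPM in non-degradable PEG, 90.3, 101 and 88.2 CPM in degradable PEG and 90.1, 90.2 and 91.99 CPM in Matrigel. Its non-degradable PEG libraries were below the other 6, while degradable PEG and Matrigel overlapped, and the log2 fold change in non-degradable PEG against Matrigel was -0.31 ± 0.068 (adjusted p = 0.0106). Uhrf1, which directs maintenance methylation to newly made DNA, had 222, 218 and 189 CPM in non-degradable PEG, 265, 255 and 232 CPM in degradable PEG and 273, 249 and 240.3 CPM in Matrigel and was lower in non-degradable PEG (-0.28, adjusted p = 0.0460).

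**Figure D4:**
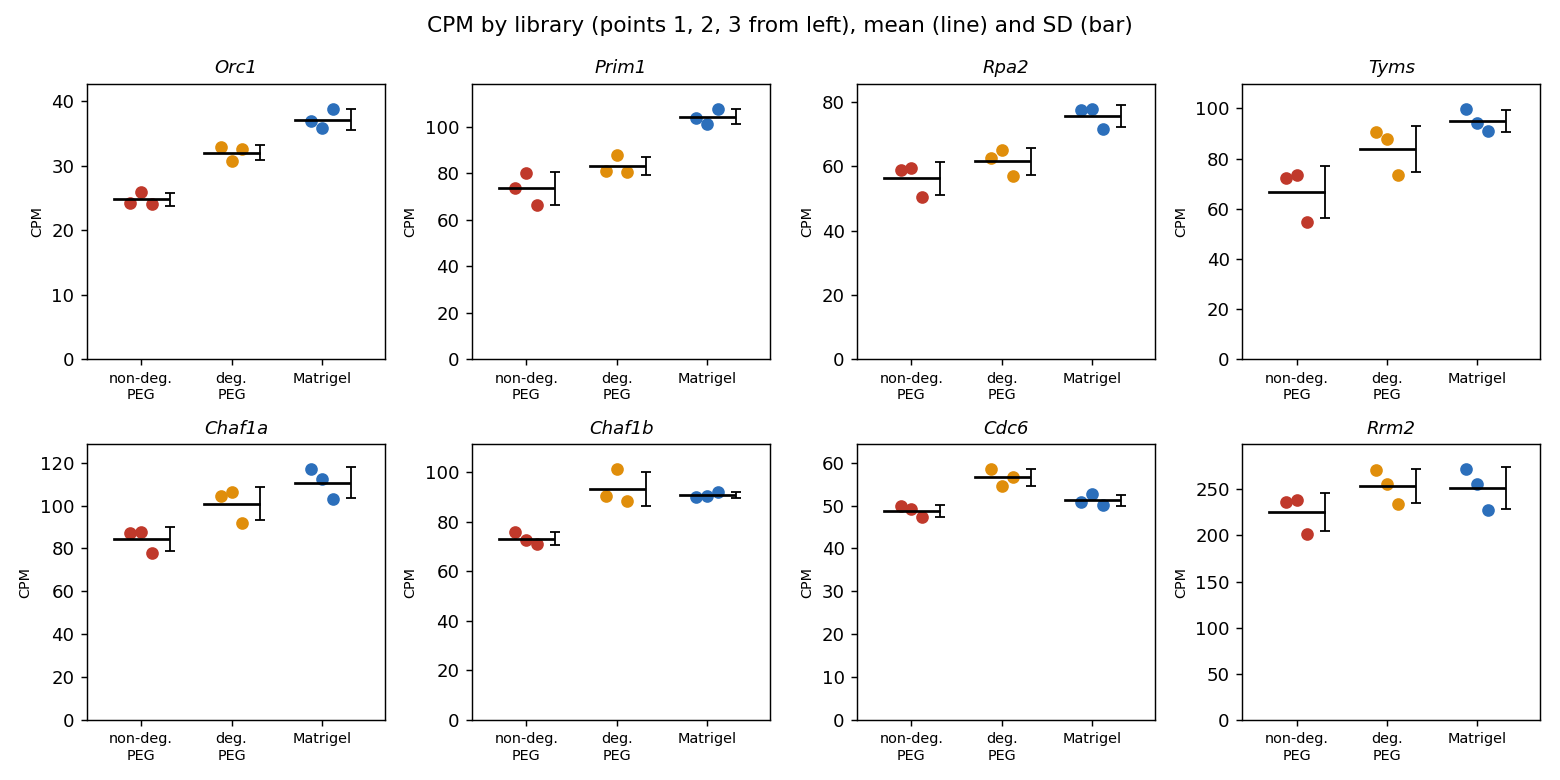
CPM of 8 replication genes in each library (points, replicates 1 to 3 from left), with the mean of 3 libraries (line) and its SD (bar), for non-degradable PEG, degradable PEG and Matrigel. Orc1, Prim1 and Tyms step up over the 3 matrices without overlap, Chaf1b is low in non-degradable PEG alone, Cdc6 is highest in degradable PEG, and the Rrm2 matrices overlap.

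In degradable PEG compared with Matrigel 2 of the 45 genes, Prim1 and Rpa2, were lower (4.44%, near the background of 4.79%) and none was higher (background 7.42%). At an unadjusted p under 0.05 edgeR gave 6 lower (background 12.7%, near the 13.3% of the 45 genes) and 1 higher (background 14.6%). DESeq2 gave 4 lower and none higher at its adjusted p, with 2322 changed over all tested genes against 1815 in edgeR. The median log2 fold change was -0.11 (-7.31%), against -0.016 over all tested genes, and it was -0.071 without the third degradable PEG library and -0.068 with upper-quartile factors, with a range from -0.33 for Prim1 to 0.14 for Cdc6. Values were below 0 for 37 genes (background 7892 of the 14870 tested genes), and for 29 to 39 in the other settings. All 3 degradable PEG libraries were below the 3 of Matrigel for 14 genes (background 14.8%) and above them for 1, Cdc6 (background 15.6%). No gene passed without the third degradable PEG library or without any single one of the Matrigel libraries, and 1 passed without the first degradable PEG or the first non-degradable PEG library. With upper-quartile factors, with library totals or with only genes of at least 5 CPM on average 1 passed as well. Changed genes over all tested genes fell from 1815 to 1178 without the third degradable PEG library. Without each Matrigel library in turn they numbered 1086, 1290 and 1177.

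Among the other genes with the smallest p in degradable PEG, Orc1, Gins3, Rfc1, Rfc3 and Cdc6 were given above, and Cdc6 had the largest value opposite to the median, at 0.14 ± 0.062 (adjusted p = 0.158). Fen1, Rrm1 and Rpa1 were at -0.17 ± 0.075, -0.19 ± 0.091 and -0.14 ± 0.070 on the log2 scale, and none passed (adjusted p = 0.183, 0.204 and 0.234). By role, the medians in degradable PEG against Matrigel were 0.10 for licensing, -0.01 for helicase activation, -0.14 for primase and polymerase alpha, -0.09 for polymerases delta and epsilon, -0.16 for clamp and loader, -0.14 for single-strand binding and -0.18 for nucleotide supply. Both comparisons with Matrigel use the same 3 Matrigel libraries.

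Between the PEG gels, 2 of the 45 genes were lower in the non-degradable than in the degradable form (background 0.464%) and none was higher (background 0.814%). No gene was higher at an unadjusted p under 0.05 (background 8.52%) or in DESeq2, while 29 were lower at an unadjusted p under 0.05 (background 6.29%) and 7 in DESeq2. With the replicate number as a block 12 were lower. Changed genes over all tested genes rose from 190 to 512 in DESeq2 and to 542 with the block. Orc1 differed by -0.37 ± 0.071 (adjusted p = 0.0346) and Chaf1b by -0.35 ± 0.068 (adjusted p = 0.0352). All 45 values were below 0, with a median of -0.23 (-14.7%), against 0.0033 over all tested genes, and without the third non-degradable PEG library 43 were below 0 and the median was -0.15. For 25 genes the non-degradable PEG libraries were all below the degradable PEG libraries (background 9.02%).

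Next in order of p in this comparison were Orc6 (-0.30 ± 0.073), Mcm3 (-0.26 ± 0.072), Cdc45 (-0.33 ± 0.090) and Cdc6 (-0.21 ± 0.062), with adjusted p of 0.0815, 0.127, 0.127 and 0.146. Mcm2, Mcm7, Chaf1a and Mcm10 followed, with -0.28, -0.29, -0.26 and -0.24. All 5 origin licensing genes, Cdc6 and Orc6 among them, were lower in every non-degradable PEG library than in any degradable PEG library (background 9.02%). Of the 5 only Orc1 passed the threshold. The 2 calls, Orc1 and Chaf1b, were lost when any of the 3 non-degradable PEG libraries, the second degradable PEG library or the second or the third Matrigel library was left out, and when the Matrigel libraries were not used in the fit. Without the first or the third degradable PEG library 1 gene passed. Over all tested genes 190 changed with all 9 libraries. There were 28, 124 and 143 without each non-degradable PEG library in turn, and 19 without the second degradable PEG library.

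Levels were compared between genes as CPM per kilobase of merged exons. The highest was Pcna, with 94.8 CPM per kb in non-degradable PEG, 104 in degradable PEG and 107 in Matrigel, followed by Rrm2 with 81.5, 91.6 and 90.8 CPM per kb. Gins3 was the lowest, with 5.89 CPM per kb in non-degradable PEG, 6.34 in degradable PEG and 7.74 in Matrigel. The ends of the order were thus more than 10-fold apart, far more than any gene's difference between matrices.

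Subunits that work in fixed proportion did not have equal CPM per kb of merged exons, a scale that depends on the annotated exons. Over the 9 libraries the highest MCM subunit, Mcm6 at 65.4 CPM per kb, was 2.19-fold the lowest, Mcm2 at 29.8. The ratio of highest to lowest was 3.33 in GINS (Gins4 over Gins3), 2.34 in replication factor C (Rfc4 over Rfc3), 1.67 in replication protein A (Rpa1 over Rpa3) and 3.04 in primase with polymerase alpha (Prim1 over Prim2). Rrm2 was 2.87-fold Rrm1, with merged exons of 2771 and 11012 bases. In plain CPM over the 9 libraries Rrm1 was the higher, at 337 against 244 for Rrm2. Chaf1b was 1.64-fold Chaf1a, for which Ubxn6 overlaps 52.5% of the exon bases. Merged exons count every annotated exon of a gene, so a gene with many alternative exons has a lower value on this scale. Whether the subunits differ in RNA level was not tested.

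**Figure D5:**
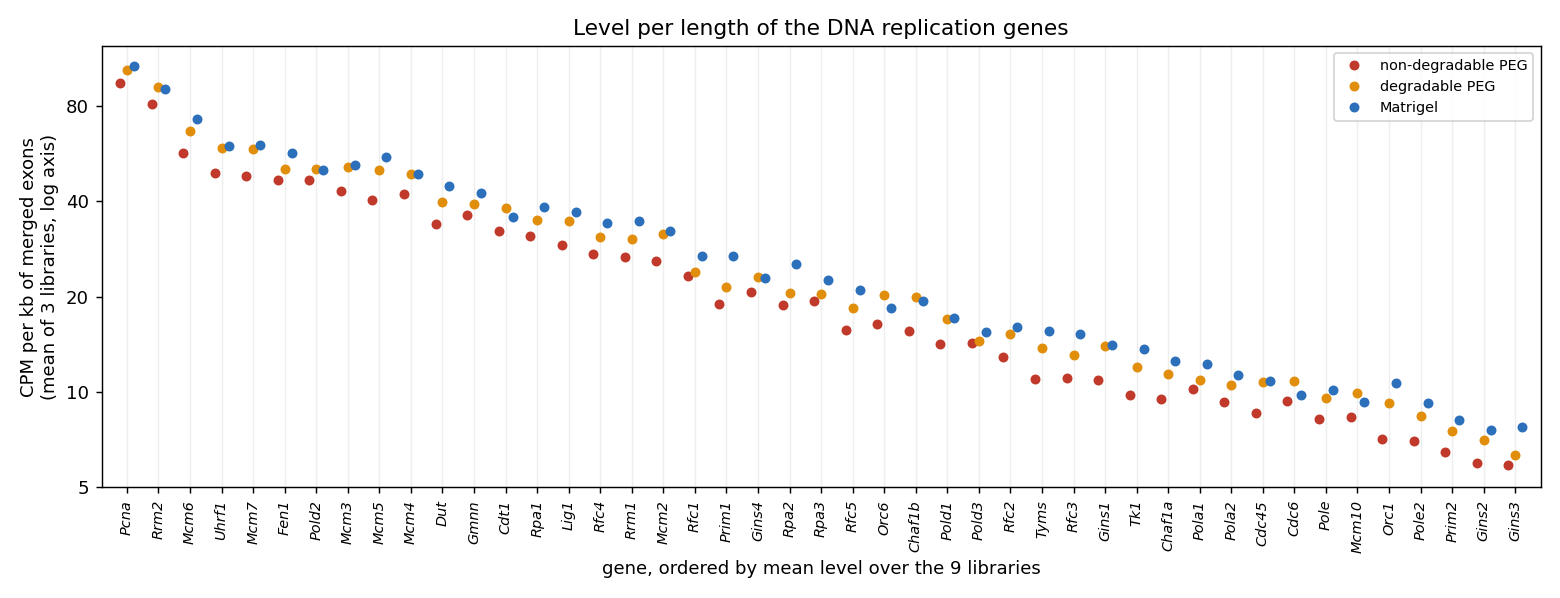
Mean level of each gene over the 3 libraries of a matrix, in CPM per kb of merged exons on a log axis, with genes ordered by their mean over all 9 libraries; points are non-degradable PEG (red), degradable PEG (orange) and Matrigel (blue). Pcna and Rrm2 lead and Gins3 is last, and the non-degradable PEG point is the lowest for each gene.

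A further 67 genes of the pathway that are not among the 45 were listed by role, and all were tested. In non-degradable PEG against Matrigel 19 (28.4%) were lower, against 7.13% of all tested genes, and 2 (2.99%) higher, against 9.71%, with a median log2 fold change of -0.24. With the replicate number as a block 33 were lower, and changed genes over all tested genes rose from 2504 to 3877. In fits without the block 7 were lower without the third non-degradable PEG library, and 9 without the first or the second Matrigel library. Over all tested genes 1189, 1452 and 1636 changed in these fits. The 3 with the smallest p were Rbbp4, a histone-binding subunit of chromatin assembly factor 1 (-0.37 ± 0.064, adjusted p = 0.00307), Pold4 (0.69 ± 0.12, adjusted p = 0.00307) and Tipin, of the fork protection complex (-0.40 ± 0.073, adjusted p = 0.00443). Others that were lower include Orc2 of the origin recognition complex, the firing factors Dbf4, Topbp1, Ticrr and Mtbp, Dscc1 of an alternative clamp loader, Pole3, Exo1 and Top2a, the nucleotide genes Dtymk and Shmt1, and Dnmt1, Asf1b, Nasp, Ssrp1 and Slbp, which handle histones or DNA methylation.

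Pold4 and Rb1 were the genes of this list that passed as higher in the non-degradable gel. Pold4, the smallest subunit of polymerase delta, which is degraded in S phase in human cells, had 17.6, 15.1 and 19.02 CPM in non-degradable PEG, 11.8, 15.1 and 13.8 CPM in degradable PEG and 10.5, 10.5 and 11.1 CPM in Matrigel. Its order was the reverse of that of most replication genes, with each degradable PEG library between those of the other matrices. Rb1, the retinoblastoma protein that holds E2F in check, had 62.2, 68.6 and 79.7 CPM in non-degradable PEG, 53.1, 44.1 and 65.9 CPM in degradable PEG and 39.5, 49.98 and 53.5 CPM in Matrigel, a log2 fold change of 0.56 ± 0.15 (adjusted p = 0.0296). Pold4 passed in all 17 other settings and Rb1 in 13.

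A list of 14 held E2F factors and S-phase cyclins with Tfdp1, Rb1, Rbl1, Cdk2 and Cdc25a. None was lower in non-degradable PEG than in Matrigel in edgeR, and Rb1 was higher (7.14%, against 9.71% of all tested genes). At an unadjusted p under 0.05 4 were lower (background 15.3%). In DESeq2 2 were lower, with 3130 changed over all tested genes against 2504 in edgeR. E2f1, an activating E2F, had 49.04, 44.97 and 39.98 CPM in non-degradable PEG, 51.1, 51.3 and 46.8 CPM in degradable PEG and 54.00, 53.2 and 49.4 CPM in Matrigel, with no overlap between non-degradable PEG and Matrigel, and a log2 fold change of -0.23 ± 0.084 (adjusted p = 0.0875). The repressors E2f7 and E2f8 were at -0.26 ± 0.14 and -0.27 ± 0.11 (adjusted p = 0.207 and 0.101). Not all E2F factors had this sign, and 10 of the 14 genes had a log2 fold change below 0 (background 7488 of the 14870 tested genes). E2f2 and E2f4 were higher, with 53.4 ± 7.4 and 116 ± 8.1 CPM in non-degradable PEG. In Matrigel they had 45.4 ± 5.2 and 110 ± 7.6 CPM (SD, n = 3 each), and neither passed. Ccne1 and Ccne2, the E cyclins of S-phase entry, were at 0.01 and -0.17 (adjusted p = 0.959 and 0.432), and the value of Ccne1 took either sign over the other settings. Ccne1 had 59.4, 55.9 and 52.3 CPM in non-degradable PEG, 64.7, 66.4 and 59.7 CPM in degradable PEG and 58.3, 57.2 and 51.2 CPM in Matrigel. Ccna2, cyclin A, was at -0.34 ± 0.11 (adjusted p = 0.0600). With the replicate block E2f1, E2f8, Ccna2 and Cdk2, a partner of the E and A cyclins, passed as lower, at adjusted p of 0.0233, 0.0250, 0.00803 and 0.0257.

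In degradable PEG against Matrigel 3 of the 67 genes were lower in DESeq2, with 2322 changed over all tested genes against 1815 in edgeR. In edgeR 1 of the 67 (1.49%, against 4.79% of all tested genes) was lower, Ticrr, a factor for origin firing (-0.28 ± 0.076, adjusted p = 0.0369). It had 59.8, 62.4 and 54.7 CPM in non-degradable PEG, 68.6, 61.03 and 62.2 CPM in degradable PEG and 81.8, 75.1 and 75.2 CPM in Matrigel, so both PEG matrices were below Matrigel and overlapped each other. Rbbp4 (-0.21, adjusted p = 0.0536) and the histone chaperone Nasp (-0.28, adjusted p = 0.0628) had the next smallest p. Between the PEG gels none of the 67 passed in edgeR or in DESeq2, with 11 lower (16.4%, against 6.29% of all tested genes) and 3 higher (4.48%, against 8.52%) at an unadjusted p under 0.05. The smallest p there were those of Tipin (-0.24), Dtymk (-0.27) and Pold4 (0.35), with adjusted p of 0.161, 0.175 and 0.210. Lgr5, the marker of intestinal stem cells, had 212, 181 and 201 CPM in non-degradable PEG, 182, 128 and 155 CPM in degradable PEG and 227, 174 and 185 CPM in Matrigel, and its non-degradable PEG and Matrigel libraries overlapped (log2 fold change 0.02, adjusted p = 0.927, of either sign when single libraries were left out).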

How the data were processed

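The authors deposited raw gene counts for each of the 9 libraries. According to the submitters' processing notes, cutadapt 1.3, STAR 2.4.2a, HTSeq 0.6.1 and the build GRCm38 were used, and per the labels' protocols libraries were made with a stranded Illumina TruSeq mRNA kit. For the annotation and strand setting of the counting no value is given in the sources used here. The 5 tally rows were taken out (no feature 7.30% to 11.2% and ambiguous 1.09% to 1.16% of reads). Symbols came from GENCODE M21, which matched 46005 of 46517 genes.

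Scaling used TMM, the trimmed mean of M values, genes were filtered with filterByExpr, and all comparisons came from 1 edgeR quasi-likelihood fit of the 9 libraries with 1 mean per matrix (6 residual degrees of freedom). Benjamini-Hochberg adjustment covered all 14870 tested genes, with 0.05 as the threshold. SE is the size of the log2 fold change divided by the root of F, and CPM uses the TMM-scaled library sizes. In non-degradable PEG and Matrigel, libraries with the same replicate number deviated together from their matrix means (r = 0.331, 0.176 and 0.186), so the fit with that number as a block is given beside the results it changes. The labels do not say what a number shares. The code was tested on simulated counts.

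The 45 genes and the other lists were chosen with earlier results of these data known. Values per library are given for the 10 genes with the smallest p in each comparison with Matrigel, the genes that changed between the PEG gels, the one most opposite to a median, the highest and lowest per length, and further members of each role. One result of the wider pathway list is not reported here. Gene overlaps were taken from the annotation. Tools were edgeR 4.0.16, DESeq2 1.42.0 and limma 3.58.1 in R 4.3.3, with the data.table package (1.17.8), Python 3.11.15 and matplotlib 3.10.9.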

Additional observations from a re-analysis of the deposited data

How the results depend on the processing

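Other scalings, filters, a fit of the compared groups only, the replicate block, DESeq2 and leaving out each library were tried. The count of replication genes lower in non-degradable PEG than in Matrigel was 25 to 33 in the settings with all libraries and 5 to 32 with 1 library left out. In degradable PEG against Matrigel it was 1 with upper-quartile factors, with library totals and with a mean of at least 5 CPM, 4 in DESeq2 and 0 to 2 with 1 library left out. Between the PEG gels it was 0 in the fit of the compared groups, 7 in DESeq2, 12 with the replicate block and 0 to 2 with 1 library left out. Over the 3 matrices it was 32 with the block and 3 to 25 with 1 library left out. Changed genes over all tested genes rose with the block too, from 2504 to 3877, 1815 to 2783 and 190 to 542 in the 3 comparisons. Over the 3 matrices they rose from 2424 to 3894. In DESeq2 they numbered 3130, 2322 and 512 in the 3 comparisons. The medians of the 3 comparisons kept their sign in every setting and moved by less than the spread between libraries (SD 0.086), which for degradable PEG against Matrigel is most of the value (-0.11 as reported, -0.143 to -0.068 in the others). Where a library was left out, the cause of a lost call was not tested beyond the smaller number of samples.

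In the comparisons with degradable PEG, r between libraries of the same number was uneven. With Matrigel it was 0.258, 0.0712 and 0.226 for numbers 1, 2 and 3, and with non-degradable PEG 0.288, 0.0197 and 0.511. These values do not settle whether the degradable PEG libraries are paired by number. With the block 3 replication genes, 5 other pathway genes and 8 mitosis genes were lower in degradable PEG than in Matrigel (2, 1 and 2 without it). Over all tested genes 2783 changed there with the block and 1815 without it. The block changed no other call of a replication gene in non-degradable PEG against Matrigel than those of Gins1, Pcna and Tk1. Libraries correlated best with their own number in 6 of 6 cases in each comparison with Matrigel and in 5 of 6 between the PEG gels, a hint from the data and not from the design.

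Ccne1 in non-degradable PEG against Matrigel was -0.0045 with library totals and -0.0056 with no filter, and -0.054 to 0.053 with 1 library left out. Lgr5 was at -0.054 to 0.14 with 1 library left out. Each matrix has 3 libraries, so a log2 difference of about the size of the standard errors given is not detectable.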

Other observations

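Genes of mitosis, which act after replication and were listed apart from it, moved in the same direction. Of 22 such genes 17 were lower in non-degradable PEG than in Matrigel at an adjusted p under 0.05 in edgeR's quasi-likelihood test, against 7.13% of all tested genes, with a median log2 fold change of -0.38. With a replicate block 20 were lower, and changed genes over all tested genes rose from 2504 to 3877. In fits without the block 8 were lower without the third non-degradable PEG library or without the first Matrigel library. Over all tested genes 1189 and 1452 changed in these fits. Ttk, a kinase of the spindle checkpoint, differed by -0.52 ± 0.12 (adjusted p = 0.0130), Birc5, which encodes survivin, by -0.47 ± 0.10 (0.00969) and Plk1, a mitotic kinase, by -0.45 ± 0.093 (0.00769). These 3 were named after their values were seen. In degradable PEG against Matrigel Nusap1 and Kif11, both of the spindle, were lower (9.09%, against 4.79% of all tested genes), with a median of -0.20 over the 22 genes. None of the 22 passed between the PEG gels in edgeR or DESeq2, with 7 lower at an unadjusted p under 0.05 (31.8%, against 6.29% of all tested genes) and a median of -0.17.

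Mki67, the proliferation marker and 1 of the 22, had 804, 913 and 644 CPM in non-degradable PEG, 955, 836 and 696 CPM in degradable PEG and 1091, 947 and 972 CPM in Matrigel. The non-degradable PEG libraries lay below those of Matrigel without passing (-0.35 ± 0.14, adjusted p = 0.0983, past the threshold in 3 of 17 other settings), and the degradable PEG libraries overlapped both. Within matrices the mitosis genes deviated along with the replication genes: their median deviation from the matrix mean was -0.17 on the log2 scale in the third non-degradable PEG library, -0.10 in the third degradable PEG library and 0.12 in the first Matrigel library.

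The search for the E2F-type motif gave 16 of 54 (29.6%) other genes of the pathway with a promoter window and 1 of 19 (5.26%) mitosis genes, against 40.5% of the replication genes.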
